A study of Rattus norvegicus with 10 samples.

Results

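The immediate early transcription factor genes Fos, Fosb, Fosl1, Fosl2, Jun, Junb, Egr1, Egr2, Atf3 and Ier2, were followed in rat mammary tumours sampled early by needle and again as whole tumours. They are 10 of the 14217 genes that have an array probe set of their own. The genes were listed by name, and each was read from the probe set that the platform annotation gives to that gene alone. Where a gene had several, the one with the highest mean log2 signal over all 10 arrays was used.

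The tumours had been induced in female Sprague-Dawley rats by a single oral dose of 100 mg/kg of DMBA, a carcinogenic polycyclic aromatic hydrocarbon, and no other treatment is given for either group. Each of 5 tumours, 31D3, 32D1, 37I1, 50I1 and 52I4, gave a needle biopsy of 0.7 cm by 2.5 mm at 12 weeks of age, when the tumour measured 2 cm3. The same tumour was collected whole when the animal was killed at 19 weeks, which gave 5 biopsy and 5 total tumour Affymetrix arrays of the rat genome. Age, way of sampling and the run of array numbers in the labels all change with the group and cannot be told apart, and the tumours had been selected for 1 histological grade. Log2 signals ran from 2.34 to 14.26, and medians lay between 5.99 and 6.11. With 5 pairs, precision was limited by how few arrays there are. The mean log2 signal of the luminal epithelium markers, all 8 brighter than the dimmest 40% of probe sets, ranged from 11.17 to 11.85 at biopsy and from 11.45 to 11.93 in total tumours. In such bulk samples fewer cells of a type and less RNA per cell cannot be told apart.

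Immediate early genes are switched on within minutes of a stimulus, without new protein synthesis, when kinases activate factors already bound to their promoters, such as serum response factor at CArG boxes and CREB at cAMP response elements. The Fos and Jun proteins pair through leucine zippers to form AP-1, the Egr proteins bind GC-rich sites through zinc fingers, and both classes pass a brief signal on to later genes. Growth factors set them off, and so do stress, wounding and the handling of tissue, so they are read in tumours both as a growth signal and as a sampling signal.

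The stretch before the gene start was read from RefSeq (GRCr8) for 7 of the 10 genes, Fosb, Fosl1, Fosl2, Egr1, Egr2, Junb and Ier2, and 250 bases of each were searched on both strands. A CArG box was found in 2 of the 7, Egr1 and Egr2, and in 1.5% of all 27457 promoters searched in the same way. The full cAMP response element TGACGTCA was found in 1 of the 7, Ier2, against 1.7% of all promoters. Its core TGACG, which the full element contains, was found in 5 of the 7, Fosl1, Junb, Egr1, Egr2 and Ier2, against 19.0% of all promoters. The AP-1 site TGACTCA was found in 0 of the 7, against 3.98% of all promoters. These matches describe letters, not bound sites. A stretch of Egr2, whose signals were the least like the mean of the other members, is shown beside the promoters of Ier2 and Junb. The sequences read 5′ to 3′ on the gene's strand, with every match in capitals. The Egr2 stretch is chr20:21054499-21054528 (minus strand), Ier2 is chr19:40399123-40399372 (plus strand) and Junb is chr19:40080876-40081125 (plus strand). The Egr2 stretch lies before the gene start used by the promoter table but within the outer limits of the gene, so only 30 bases are given.
Egr2: cagtCCATATATGGgcagcgaCGTCAcggg
Ier2: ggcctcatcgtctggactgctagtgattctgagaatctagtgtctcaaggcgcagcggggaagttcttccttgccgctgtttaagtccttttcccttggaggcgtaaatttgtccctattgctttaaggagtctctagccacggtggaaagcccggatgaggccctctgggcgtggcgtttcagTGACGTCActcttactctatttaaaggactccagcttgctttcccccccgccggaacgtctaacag
Junb: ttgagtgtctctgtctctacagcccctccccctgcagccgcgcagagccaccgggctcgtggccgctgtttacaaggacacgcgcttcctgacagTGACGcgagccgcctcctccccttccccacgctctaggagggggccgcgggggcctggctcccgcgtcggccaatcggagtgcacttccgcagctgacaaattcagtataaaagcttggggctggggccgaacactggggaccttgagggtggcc
In Egr2 the CArG box runs from 83 to 74 bases before the gene start and the core TGACG, read on the opposite strand, from 66 to 62. In Ier2 the full element runs from 66 to 59 bases before the start, and in Junb the core runs from 155 to 151.

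Signals of most of the 10 genes were high together in 1 array, total tumour 31D3. In 32D1, 50I1 and 52I4, 8 of the 10 genes had a lower value in the total tumour than in the biopsy, and in 37I1 5 did. Over all genes tested the median difference of each pair lay between -0.01 and 0.0, so about as many genes were lower as higher. Biopsy 31D3 was high for Fos, Fosb and Atf3 but was the lowest biopsy for Fosl2. Total tumour 31D3 was the highest of all 10 arrays for 7 genes, Fosb, Fosl1, Fosl2, Jun, Junb, Egr1 and Atf3. Among the 9 members bright enough to be tested the count was 6, or 66.7%, where total tumour 31D3 was the highest array for 12.0% of all 10793 genes tested. The median log2 difference of the 10 genes, total tumour minus biopsy, was 1.15 in 31D3, -0.36 in 32D1, -0.11 in 37I1, -0.49 in 50I1 and -0.75 in 52I4. No member passed the paired test. The lowest adjusted p among members was 0.846 in limma for Ier2, and 0.0% of the 18625 probe sets tested passed. At an unadjusted p under 0.05, 0 of the 9 members were lower and 0 higher, against 2.56% of the 10793 genes lower and 1.61% higher. By the plain paired test named in the labels, 0 probe sets passed after adjustment and 1013 had an unadjusted p under 0.05.

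**Figure D1:**
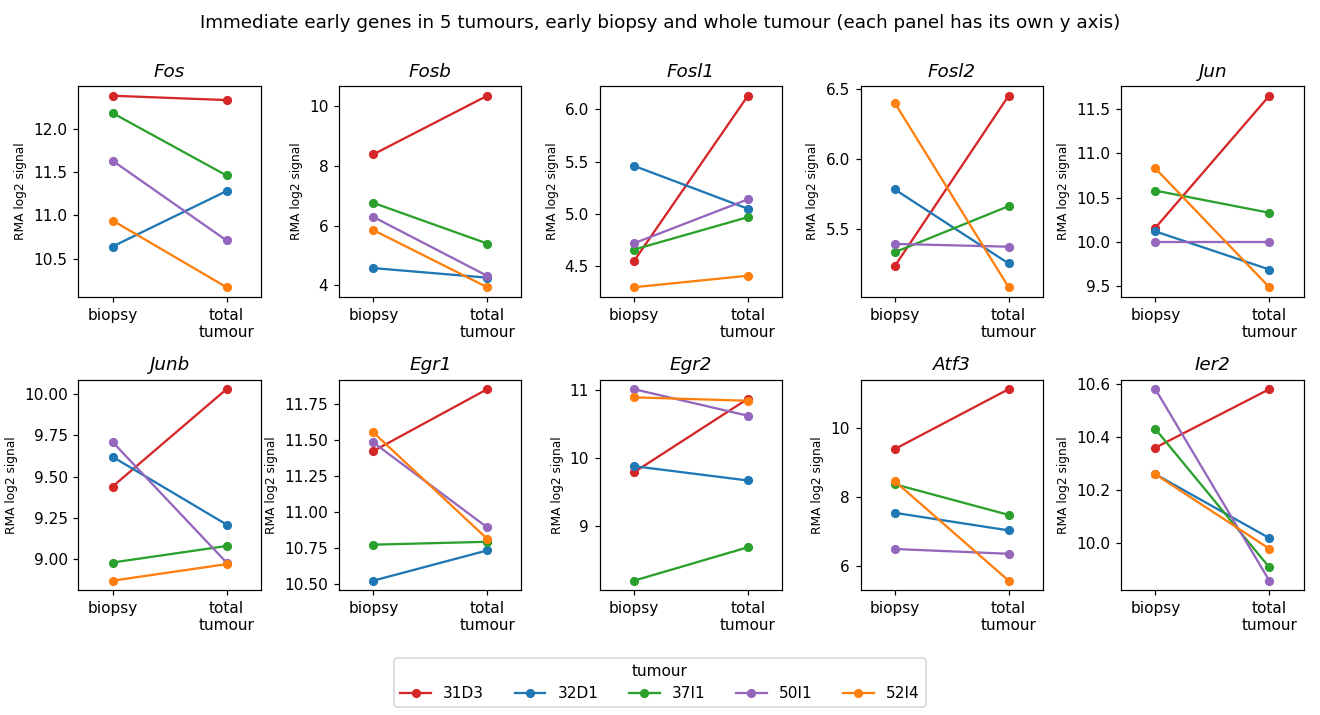
RMA log2 signal of each of the 10 genes in the biopsy and the total tumour of 5 tumours, 1 line per tumour, with a separate y axis for each gene. Total tumour 31D3 is the highest total tumour in every panel, by the least in that of Egr2, where 31D3 and 52I4 lie at 10.87 and 10.84.

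Fosb, an AP-1 subunit made from a short-lived transcript, had the widest range of the 10 genes. Its log2 signals in the biopsies were 8.38 in 31D3, 4.58 in 32D1, 6.76 in 37I1, 6.29 in 50I1 and 5.85 in 52I4. In the total tumours they were 10.34, 4.26, 5.40, 4.32 and 3.94 in the same order. Both arrays of 31D3 were above all others, the other 4 total tumours were each below their own biopsy, and the groups overlapped. The biopsies averaged 6.37 ± 1.39 (SD, n = 5), and the total tumours averaged 5.65 ± 2.68 (SD, n = 5). The difference was -0.72 (95% interval -2.12 to 0.68, adjusted p = 0.880 in limma), while the highest array exceeded the lowest 84.2-fold. Both arrays of 32D1 and the total tumours of 50I1 and 52I4 lay under 5.15, the limit on mean signal set for testing. The width of the range and the differences in these tumours thus rest in part on dim values. The pair 31D3 was the only one of the 5 with a higher value in the total tumour, so leaving it out, which gave -1.39, is a description. The difference was -0.41 without 50I1 and -0.42 without 52I4.

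Fos, the founding member of the family and a partner of Jun in AP-1, had a narrower range on a bright probe set. Its biopsy signals were 12.38 in 31D3, 10.64 in 32D1, 12.18 in 37I1, 11.63 in 50I1 and 10.94 in 52I4, and its total tumour signals were 12.33, 11.28, 11.46, 10.71 and 10.17. Fos was thus as high in the biopsy of 31D3 as in its total tumour, had a pair difference of 0.64 in 32D1 and differences of -0.72, -0.92 and -0.76 in 37I1, 50I1 and 52I4. The mean difference was -0.36 (SE 0.244, adjusted p = 0.873 in limma). A second Fos probe set, with a mean log2 signal of 4.93, was too dim to be tested.

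Fosl1 and Fosl2 encode the Fos-related proteins Fra-1 and Fra-2, which last longer than Fos and are often raised in invasive cells. Fosl1 had biopsy signals of 4.55, 5.46, 4.66, 4.72 and 4.30 in 31D3, 32D1, 37I1, 50I1 and 52I4, and total tumour signals of 6.13, 5.05, 4.97, 5.14 and 4.41. Its mean of 4.94 lay under the limit of 5.15 set for testing, and with no limit its difference was 0.40 (95% interval -0.23 to 1.03, adjusted p = 0.789 in limma). The total tumour of 31D3 was the highest array, and the next was the biopsy of 32D1. Fosl2 had biopsy signals of 5.23, 5.78, 5.33, 5.39 and 6.40 and total tumour signals of 6.45, 5.25, 5.66, 5.37 and 5.08. It was high in the total tumour of 31D3 and the biopsy of 52I4, and the pairs of these tumours differed by 1.22 and -1.31, in opposite directions. Its mean difference was -0.06 (SE 0.343, adjusted p = 0.983 in limma), and 0.25 without 52I4.

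Jun, the partner that most Fos proteins need to bind DNA, had biopsy signals of 10.16, 10.12, 10.58, 10 and 10.83 and total tumour signals of 11.65, 9.69, 10.33, 10 and 9.49, in the same tumour order. Its total tumours thus included both the highest array, 31D3, and the lowest, 52I4, and their SD of 0.85 compares with 0.35 in the biopsies. The mean difference was -0.10 (SE 0.370, adjusted p = 0.978 in limma), -0.50 without 31D3 and 0.21 without 52I4. All 3 Jun probe sets were highest in the total tumour of 31D3. Junb, a Jun relative that can restrain Jun, had biopsy signals of 9.44, 9.62, 8.98, 9.71 and 8.87 and total tumour signals of 10.03, 9.21, 9.08, 8.98 and 8.97. The 4 total tumours other than 31D3 lay between 8.97 and 9.21, and the mean difference was -0.07 (SE 0.197, adjusted p = 0.972 in limma).

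Atf3, a stress-induced bZIP factor that pairs with Jun proteins, varied nearly as widely as Fosb. Its biopsy signals were 9.39 in 31D3, 7.54 in 32D1, 8.37 in 37I1, 6.49 in 50I1 and 8.46 in 52I4. Its total tumour signals were 11.13, 7.03, 7.48, 6.35 and 5.57. Both arrays of 31D3 were the highest, and the total tumour of 52I4 was the lowest, 47.0-fold below the highest. The mean difference was -0.54 (95% interval -1.95 to 0.87, adjusted p = 0.918 in limma), -1.11 without 31D3 and 0.05 without 52I4.

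Ier2, a small nuclear protein induced as quickly as Fos, had the narrowest range. Its biopsies lay at 10.36, 10.26, 10.43, 10.58 and 10.26, and its total tumours at 10.58, 10.02, 9.91, 9.86 and 9.98. Apart from 31D3, every total tumour was below every biopsy. The difference was -0.31 (SE 0.147, adjusted p = 0.846 in limma), lower in 4 of 5 pairs. The exact two-sided permutation test that flips the signs of pairs gave p = 0.125 for Ier2, where 5 pairs allow no less than 0.0625. Leaving out 1 tumour at a time gave -0.44 without 31D3, the only pair with a higher total tumour, to -0.21 without 50I1.

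Egr1, a zinc finger factor induced by growth factors and injury, had biopsy signals of 11.42, 10.52, 10.77, 11.48 and 11.55 and total tumour signals of 11.85, 10.73, 10.79, 10.89 and 10.81. The total tumours other than 31D3 lay close together, between 10.73 and 10.89, while the biopsies spread over both sides of them. The mean difference was -0.13 (SE 0.196, adjusted p = 0.940 in limma). Egr2, its relative that also acts in myelination and in T cell tolerance, followed another order. Its biopsy signals were 9.79, 9.88, 8.20, 11.01 and 10.89 and its total tumour signals 10.87, 9.67, 8.69, 10.62 and 10.84. Both arrays of 37I1 were the lowest, and 50I1 and 52I4 were high in both arrays, although Fosb and Atf3 were low in the total tumours of both. The mean difference of Egr2 was 0.19 (SE 0.226, adjusted p = 0.923 in limma), and -0.15 on its second probe set. As a likeness over the 10 arrays, which share tumours in pairs, the Pearson correlation of Egr2 with the scaled mean of the other tested members was 0.14. For the other 9 genes the same measure ran from 0.46 for Fosl1 to 0.90 for Fosb. The mean of the members was 10.14 in total tumour 31D3 and 9.11 in the next array, biopsy 31D3. These correlations thus rest in part on 1 array. Gene by gene among the tested members, the correlation of Egr2 ran from -0.35 with Fos to 0.55 with Egr1.

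**Figure D2:**
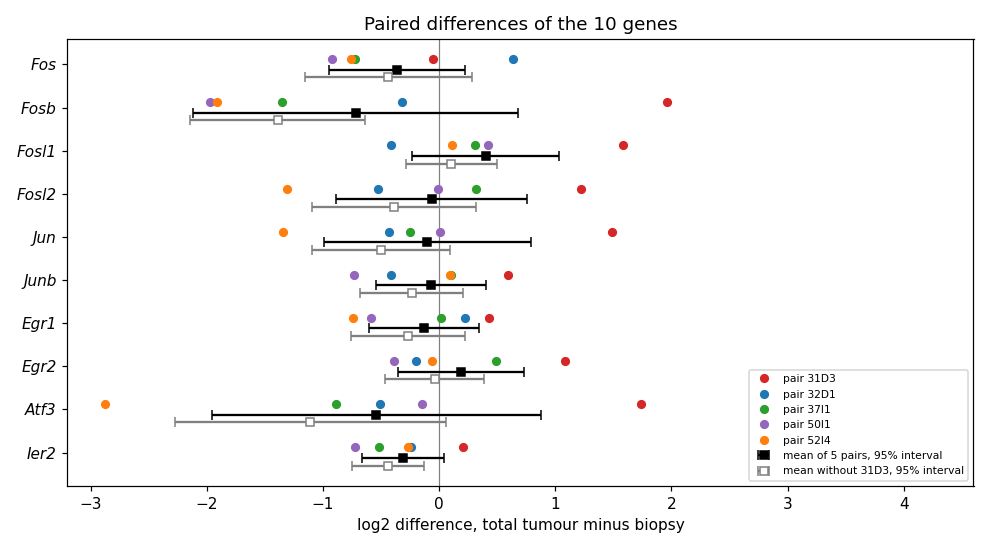
Log2 difference, total tumour minus biopsy, for each gene, with coloured points for the 5 pairs, black squares for their mean and open squares for the mean without tumour 31D3, both with 95% intervals from limma. The pair 31D3 lies to the right of the other pairs in every gene except Fos, so the open squares, which leave out that pair after its values were seen, are a description and lie to the left of the black squares.

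Lower values in the total tumour were thus frequent but not shared by all pairs. Of the 9 tested members, 4 were lower in 4 of 5 pairs, Fos, Fosb, Atf3 and Ier2, where 20% of all genes tested were lower in 4 or 5 pairs. By tumour, 8 of the 10 genes were lower in 32D1, 5 in 37I1, 8 in 50I1 and 8 in 52I4, and 1, Fos, in 31D3. Over all genes tested, about as many were lower as higher in each tumour, with medians between -0.01 and 0.0.

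The tumours themselves were compared next, asking whether a tumour that was high at biopsy was also high at the later moment. This comparison of 5 tumours over both moments was added after the values had been seen. Egr2 had a tumour mean of 8.44 in 37I1, 9.78 in 32D1, 10.33 in 31D3, 10.82 in 50I1 and 10.86 in 52I4 (limma F-test unadjusted p of 0.00187, adjusted p = 0.2). Fosb had tumour means of 9.36 in 31D3, 6.08 in 37I1, 5.30 in 50I1, 4.89 in 52I4 and 4.42 in 32D1 (unadjusted p of 0.00816, adjusted p = 0.325 in limma). Fos followed nearly the same order, from 12.36 in 31D3 to 10.56 in 52I4 (unadjusted p of 0.0169, adjusted p = 0.386 in limma), and Atf3 ran from 10.26 in 31D3 to 6.42 in 50I1 (unadjusted p of 0.0343, adjusted p = 0.443 in limma). These 4 of 9 tested members had an unadjusted p under 0.05, where 10.1% of the 10793 genes did. No member passed after adjustment, where 0.0371% of genes did. Without 37I1 the unadjusted p of Egr2 was 0.0913, and without 31D3 that of Fosb was 0.0426, of Fos 0.102 and of Atf3 0.253. That of Atf3 was 0.0635 without 50I1 and 0.0726 with array weights. Fosb, Atf3, Egr2 and Fos were also among the most variable features, with an SD over the 10 arrays above that of 99.9%, 99.6%, 97.1% and 93.4% of probe sets tested. Ier2 was above 54.4%.

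The wider set of early response genes was taken from a list of 61, of which 60 had a probe set of their own and 53 were tested. None passed, with a lowest adjusted p of 0.642 in limma. Before adjustment 4 of the 53 were under 0.05 and higher, where 1.61% of all genes were, and 1 was lower, where 2.56% were. Their median difference was 0.04, against 0.0039 for all genes tested. Of the 53, 20 were lower and 33 higher, where 5272 and 5521 of all 10793 genes tested were. Within tumours the medians of the 53 were 0.83 in 31D3, -0.23 in 32D1, 0.30 in 37I1, -0.24 in 50I1 and -0.03 in 52I4. Thus 31D3 had the highest median here as it did for the members. Total tumour 31D3 was the highest array for 28 of the 53, or 52.8%, beside the 12.0% over all genes.

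Id1 and Id3, which block helix-loop-helix factors, and Klf10, a TGF-beta induced zinc finger factor, averaged higher in total tumours, without passing the test. Id1 averaged 7.48 ± 0.46 (SD, n = 5) at biopsy and 8.54 ± 0.41 (SD, n = 5) later, a difference of 1.05 with 5 of 5 pairs higher (SE 0.228, adjusted p = 0.642 in limma). Klf10 differed by 0.65 (SE 0.197, adjusted p = 0.678 in limma) in 5 of 5 pairs and Id3 by 0.67 in 4. Ier3, an apoptosis modulator, differed by -0.52 (SE 0.184, adjusted p = 0.737 in limma) and was lower in 5 of 5 pairs. The orphan nuclear receptor Nr4a1, named after its values were seen, differed by 1.3 in 31D3 and by -1.01, -1.46, -0.63 and -0.39 in 32D1, 37I1, 50I1 and 52I4, the same signs as Fosb and Atf3.

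**Figure D3:**
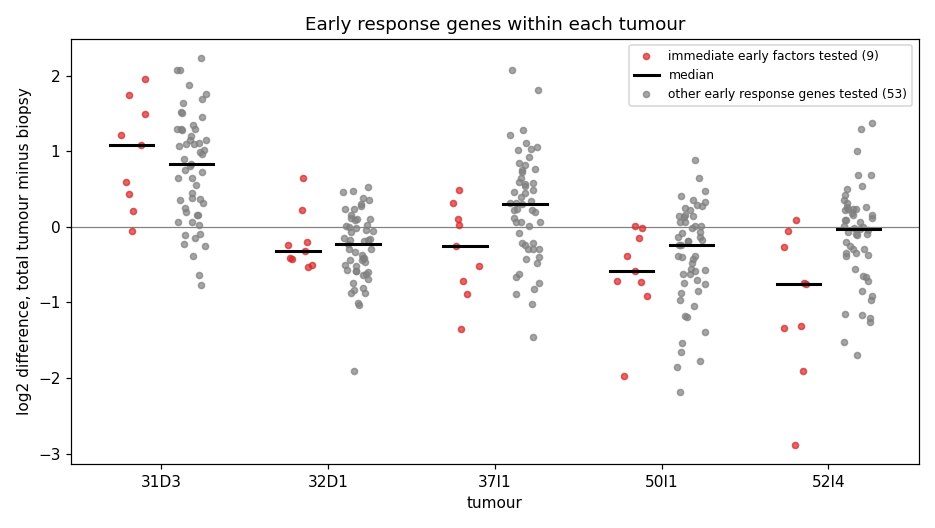
Log2 difference, total tumour minus biopsy, of the 9 tested members (red) and 53 other early response genes (grey) in each of 5 tumours, with horizontal bars for the medians. The medians were 1.08 and 0.83 in 31D3, and in 52I4 they were -0.76 for the members and -0.03 for the other genes.

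AP-1 partners with other bZIP factors, upstream factors, and targets of AP-1 and Egr were read in the same fit. Among 15 tested AP-1 partners and other bZIP factors, 0 passed the limma test. The unadjusted p was under 0.05 and the value lower for 2, where 2.56% of all genes were, namely Batf3, a factor of dendritic and T cells, at -0.35 (SE 0.146) and Xbp1, a factor of the secretory pathway, at -0.37 (SE 0.149). Atf2, a partner of Jun, differed by -0.19 and Cebpa, a bZIP factor of differentiation, by 0.16. Among 17 upstream genes 0 passed the limma test, 0 at the unadjusted level, and the median was -0.06. For 3 of the 17, or 17.6%, total tumour 31D3 was the highest array, beside the 12.0% over all genes tested. Of the 15 AP-1 partners and other bZIP factors, 7 were highest in that array, or 46.7%. Creb1, which binds cAMP response elements, differed by -0.19, Mrtfa, a cofactor of serum response factor, by -0.21, the Jun kinase gene Mapk8 by -0.11 and the kinase gene Rps6ka5 by -0.16.

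Of 19 tested genes described as AP-1 or Egr targets, 0 passed the limma test. At an unadjusted p under 0.05, 1 was higher, where 1.61% of all genes were. The median was 0.2, and 14 of the 19 averaged higher at the later moment, where 5521 of all 10793 genes tested did. Total tumour 31D3 was the highest array for 5 of the 19, or 26.3%, beside the 12.0% over all genes. Osteopontin (Spp1) differed by 0.81 (SE 0.301, unadjusted p of 0.0336 in limma) and the collagenase Mmp13 by 1.10 (SE 0.535). Heme oxygenase Hmox1 differed by 0.70 (SE 0.292) and tissue factor F3 by 0.26 (SE 0.15). The target medians were 0.62 in 31D3, -0.28 in 32D1, 0.55 in 37I1, -0.06 in 50I1 and 0.24 in 52I4, so in 37I1 and 52I4 they had the opposite sign to the medians of the members.

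Measures of growth, stress and RNA integrity were set beside the members array by array. The 23 proliferation genes had their lowest mean log2 signal in biopsy 31D3, at 6.71, and their highest in biopsy 32D1, at 9.31. The mean of the 10 members was 9.11 in biopsy 31D3, the second highest array, and 8.44 in biopsy 32D1. In the total tumours the proliferation mean was 7.81 in 31D3, 8.72 in 32D1, 7.53 in 37I1, 9.12 in 50I1 and 8.71 in 52I4, and the member mean 10.14, 8.22, 8.38, 8.22 and 7.93. Tumours 50I1 and 52I4, whose member means were lower in the total tumour by 0.51 and 0.91, had proliferation means higher by 0.86 and 1.0. In 31D3 both means were higher, by 1.02 and 1.10. In 32D1 the member and proliferation means differed by -0.22 and -0.60, and in 37I1 by -0.25 and -0.51, so the signs were the same in 3 of 5 pairs and opposite in 50I1 and 52I4.

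The 12 measured heat shock genes had a mean of 10.83 in total tumour 31D3, the highest array, against 9.88 to 10.47 in the other total tumours and 10.05 to 10.38 in the biopsies. The small heat shock protein gene Hspb1 read 11.73 there, against 9.43 to 10.24 in the other total tumours, and the Hsp40 gene Dnajb1 read 11.20, against 9.85 to 10.42. Total tumour 31D3 was the highest array for 5 of the 12 heat shock genes, or 41.7%, beside the 12.0% over all genes tested. The chaperone genes Hspa4, at 8.13, and Hsp90ab1, at 13.09, named after their values were seen, had their lowest signal of all 10 arrays there. Heat shock genes as a list had 0 members past the test in limma, with a median of 0.07. Their part in the result was not tested. RNA integrity was read as the 3′ minus 5′ difference of the control probe sets on the array. For beta-actin it lay between 0.70 and 0.87 in the biopsies and 0.71 and 0.91 in the total tumours, with 0.87 and 0.88 in the arrays of 31D3. For Gapdh it lay between 0.09 and 0.19 and between 0.04 and 0.22, with 0.19 and 0.21 in 31D3. Total tumour 31D3 ranked 2 and biopsy 31D3 ranked 3 of the 10 arrays for both measures, and biopsy 31D3 was the highest biopsy for both. The part of RNA integrity in the result was not tested.

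Markers of other cells moved with the members in part. The T and NK cell markers, 7 of 7 above the limit, had a mean of 9.10 in total tumour 31D3, against 6.09 to 6.91 in the other total tumours and 4.92 to 7.36 in the biopsies. The macrophage markers, 7 of 7 above the limit, were also highest there, at 10.59, against 8.39 to 9.89 in the other total tumours and 7.91 to 10.47 in the biopsies. Their part in the result was not tested. Biopsy 31D3, where Fos, Fosb and Atf3 were high as well, had a T and NK cell mean of 7.00 and a macrophage mean of 9.62, within the range of the other biopsies. The mast cell mean, 7 of 7 above the limit, was 10.68 and 10.10 in the biopsy and total tumour of 31D3, the 2 highest arrays. It was lower in the total tumour in 5 of 5 pairs, with differences of -0.59 in 31D3, -0.27 in 32D1, -1.29 in 37I1, -1.28 in 50I1 and -1.29 in 52I4, of which the last 4 also had a lower member mean. Its part in the result was not tested.

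For Egr2, the array with the lowest signal, biopsy 37I1, also had the lowest fibroblast mean, 7.63 against 9.67 to 11.10 in the other biopsies, the lowest macrophage mean, at 7.91, and the lowest T and NK cell mean, at 4.92. In the total tumour of 37I1 the fibroblast mean lay within the 9.85 to 11.07 of the total tumours, and Egr2, at 8.69, was the lowest of its group. The part of these cells in the Egr2 signal was not tested. The other lists of cell markers were not highest in total tumour 31D3. The means there were 11.46 for luminal epithelium, 10.10 for basal epithelium, 7.72 for endothelium, 5.40 for neutrophils, 8.64 for smooth muscle, 5.12 for skeletal muscle, 5.00 for adipocytes and 7.30 for blood.

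**Figure D4:**
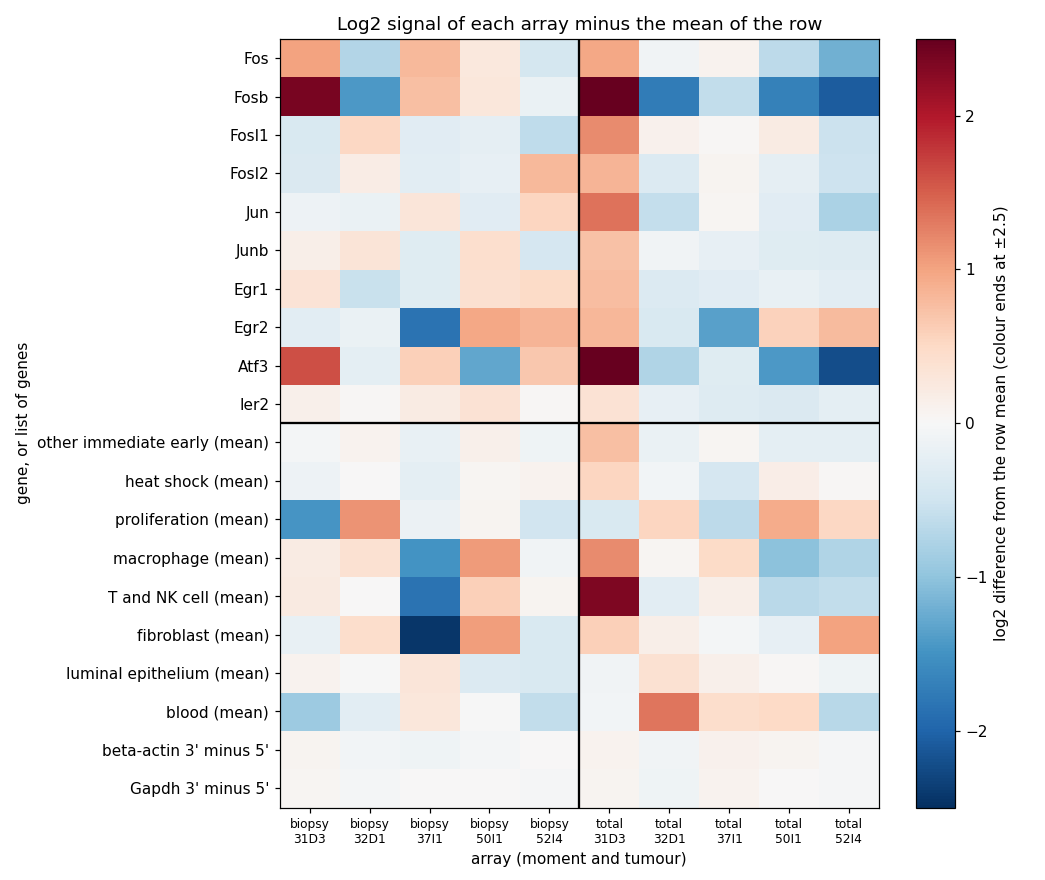
Heat map of log2 signal minus the row mean, with the 10 genes above the black line and means of gene lists or control differences below it, for the 5 biopsies (left) and 5 total tumours (right). Total tumour 31D3 is red for all 10 genes and for the heat shock (10.83), macrophage (10.59) and T and NK cell (9.10) means, while the proliferation mean of 7.81 there is below its row mean.

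The 8 tested genes outside the list whose signals were most like the mean of the members over the 10 arrays were Lime1, Klra22, Stx11, Irf5, Septin1, Ppp1r15a, Eno3 and Faslg. Their Pearson correlations ran from 0.952 for Lime1 to 0.911 for Faslg, and all 8 were highest in total tumour 31D3, which follows in part from the choice, since the member mean itself stood out in that array. Klra22 and Stx11 were dim, and their mean signals passed the limit of 5.15 only through that array. Lime1, the most alike, read 6.87, 6.41, 6.21, 6.93 and 6.88 in the biopsies and 7.59, 6.36, 6.47, 6.11 and 5.84 in the total tumours. Ppp1r15a, a stress-induced phosphatase subunit, read 8.67, 8.38, 8.30, 8.21 and 8.43 in the biopsies and 9.09, 8.12, 8.21, 7.78 and 7.72 in the total tumours. Its correlation of 0.917 was below those of Lime1, Klra22, Stx11, Irf5 and Septin1. The T and NK cell mean, at 9.10, was also highest in total tumour 31D3, and its part in these likenesses was not tested.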

How the data were processed

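RNA of 10 samples was read on Affymetrix rat genome arrays after storage in a preservative and freezing, per the labels. The authors deposited probe set signals on the log2 scale, normalized with RMA, per the submitters' processing notes. RMA forces the arrays onto 1 distribution and so removes a shift shared by most transcripts. The version and chip definition used for RMA are not given here. The scale was read from the values. The values were used as deposited.

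Of 31042 probe sets that are not controls, 20826 had 1 gene in the platform annotation, 436 several and 9780 none listed. Gene identifiers gave current symbols from the RefSeq table of GRCr8. The dimmest 40% by mean signal (limit 5.15) were left out, which left 18625 probe sets tested and 10793 genes. The paired comparison was a linear model with moderated variances (limma 3.58.1, R 4.3.3), in which the tumour was the block, as in the paired test of the study, and Benjamini-Hochberg adjustment over all probe sets at a threshold of 0.05. The tumour comparison used limma's F-test in the same fit. Levels of list means include genes under the limit. The steps were tested on simulated data. Figures were drawn with matplotlib 3.10.9.

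The pairing comes from the tumour names in the labels, and deviations from the group means correlated above 0.1 in 4 of 5 pairs, with -0.21 in 50I1. For the later moment the design text speaks of a needle sample, but the sample labels of the total tumour, and the labels were followed. Whether any of the tumours grew in the same rat is not in the labels. The p-values then reflect only how far these tumours spread. The members and lists were chosen with earlier results of these data known. Named genes were all members, the 4 genes of each list with the smallest p, the proliferation marker Mki67 and the 8 genes most like the members. Alternatives were other filters, no block, the methods' paired test, an intensity trend, array weights, 2 other normalizations, other probe sets and leaving out each tumour.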

Additional observations from a re-analysis of the deposited data

Results flagged for a closer look

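In 13 of 128 groups of 5 arrays 1 array stood apart from the other 4, its gap to the nearest one being more than 0.71 of the group's range. Chance alone marks about 1 in 20 such groups. In 10 of the 13 cases the array was total tumour 31D3, and 9 of these 10 were members, their mean or genes chosen for their likeness to it, which are not independent. The other was the T and NK cell mean.

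Among members, total tumour 31D3 read 10.34 for Fosb (next 5.40), 10.03 for Junb (next 9.21), 11.85 for Egr1 (next 10.89) and 10.58 for Ier2 (next 10.02). The mean of the members was 10.14 there (next 8.38). Among the genes most like the members it read 6.56 for Klra22 (next 5.01), 6.62 for Stx11 (next 4.77), 8.69 for Septin1 (next 7.46) and 7.01 for Faslg (next 5.52). All other total tumours of Klra22 and Stx11 lay under the limit of 5.15 set for testing. These genes passed it only through their signal in total tumour 31D3, so their standing out there follows in part from the filter. The T and NK cell mean was 9.1 in the same array (next 6.91). In biopsy 37I1 that mean was low, at 4.92 (next 6.78). Mapk8 was high in biopsy 32D1, at 7.61 (next 7.35), and the smooth muscle mean was low in total tumour 32D1, at 8.17 (next 8.56).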

How the results depend on the processing

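The number of members and of other early response genes past the threshold was 0 under every alternative run, and the median difference over the members ran from -0.41 to 0.03 (-0.12 as reported). Without the replicate block, which in this balanced design cannot move a mean difference (the median stays -0.12), the adjusted p of Ier2 in limma was 0.999. The other filters, the plain paired test and the intensity trend cannot move a difference either. Of the 394 values from the remaining alternatives, for 43 named genes, 20 reversed direction, 10 of them among the 91 for members, and over all alternatives the lowest adjusted p was 0.46. The 394 and the 91 include the mean of probe sets of genes with a single probe set, such as Fosb, where the difference cannot move. With the second probe set the difference was 0.054 for Fos, -0.15 for Egr2 and -0.10 for Cebpa, with the mean of probe sets -0.028 for Cebpa, and with array weights -0.090 for Faslg. Leaving out 1 tumour at a time gave -1.39 to -0.41 for Fosb, -0.61 to -0.22 for Fos, -0.44 to -0.21 for Ier2, 0.11 to 0.60 for Fosl1, -0.38 to 0.25 for Fosl2, -0.50 to 0.21 for Jun, -0.24 to 0.094 for Junb, -0.27 to 0.020 for Egr1, -0.039 to 0.33 for Egr2 and -1.11 to 0.046 for Atf3. It gave -0.29 to 0.0037 for Rps6ka5, -0.053 to 0.27 for Dnajb1, -0.050 to 0.20 for Hspe1, -0.41 to 0.025 for Lime1, -0.40 to 0.043 for Septin1, -0.12 to 0.36 for Faslg and -0.061 to 0.54 for Mki67. The cause was not tested. With all 5 pairs the 95% interval of every member included 0, and the probe set of Fosl1 was too dim for the filter.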
